A study of Canis lupus familiaris with 10 samples.

Results

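Chromatin accessibility was compared between 2 cell lines of canine B-cell lymphoma that were grown without inhibitor, CLBL-1 and 17-71. The comparison rests on the libraries whose agent is labelled Control, which are 5 of the 10 libraries of the series. These are libraries B1, B2 and B3 of 17-71, collected on day 4, and libraries C2 and C3 of CLBL-1, collected on day 2. The other 5 libraries came from cells given 100 nM PR220, an inhibitor of the arginine methyltransferase PRMT5 (B4 and B6 of 17-71 on day 4, and C4, C5 and C6 of CLBL-1 on day 2), and were used here as separate libraries of the same lines. All 10 libraries carry lymph node as their source and B-cell lymphoma as their cancer type. Each line is a single culture-grown line from the dog, so that the comparison describes these lines and not lymphoma of other dogs. Cell line and day of collection go together in every library and cannot be told apart. The labels do not state whether the libraries of a line came from separate cultures, although the study calls the experiments biological replicates, and the p-values measure only the spread between these libraries. The study's methods also state that samples standing apart in read-count correlation were removed, so the spread within a line is that of the samples kept.

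ATAC-seq uses a transposase that cuts and tags DNA where nucleosomes leave it exposed, and places where many sequenced fragments pile up are reported as peaks of accessibility. Promoters of active genes tend to be open in many cell types, while distal elements such as enhancers differ more between cell types and between tumors of one lineage. Mature B cells read the state of their antigen receptor and of their surface receptors through a limited set of transcription factors, and lymphomas that arise from different stages of B-cell maturation keep parts of the accessible chromatin of that stage.

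The 17-71 control libraries held more peaks than the CLBL-1 control libraries. The 17-71 lists held 44378 peaks in B1, 33358 in B2 and 30943 in B3, and the CLBL-1 lists held 23822 in C2 and 23318 in C3. Every 17-71 control list was longer than both CLBL-1 control lists. The mean was 36226 ± 7162 peaks (SD, n = 3) in 17-71 and 23570 ± 356 (SD, n = 2) in CLBL-1, a difference of 12656 peaks (2-sided exact permutation test over libraries, p = 0.2). With 3 libraries against 2, this test cannot give a p below 0.1. The peaks covered 39.6 ± 5.83 Mb of the genome in 17-71 and 26.1 ± 0.692 Mb in CLBL-1 (exact permutation p = 0.1). Median peak width was nearly the same, at 937 ± 58.0 bp in 17-71 and 949 ± 58.0 bp in CLBL-1 (exact permutation p = 1). With a minimum −log10 p of 10 the difference was 5856 peaks (exact permutation p = 0.2). Among peaks with a fold enrichment of at least 4, the mean difference between the lines was 871.5 peaks (exact permutation p = 1), where fold enrichment is the ratio of fragments in a peak to the local background. The number of reads behind each list is unknown from the peak lists, and the part of depth in this difference was not tested.

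**Figure D1:**
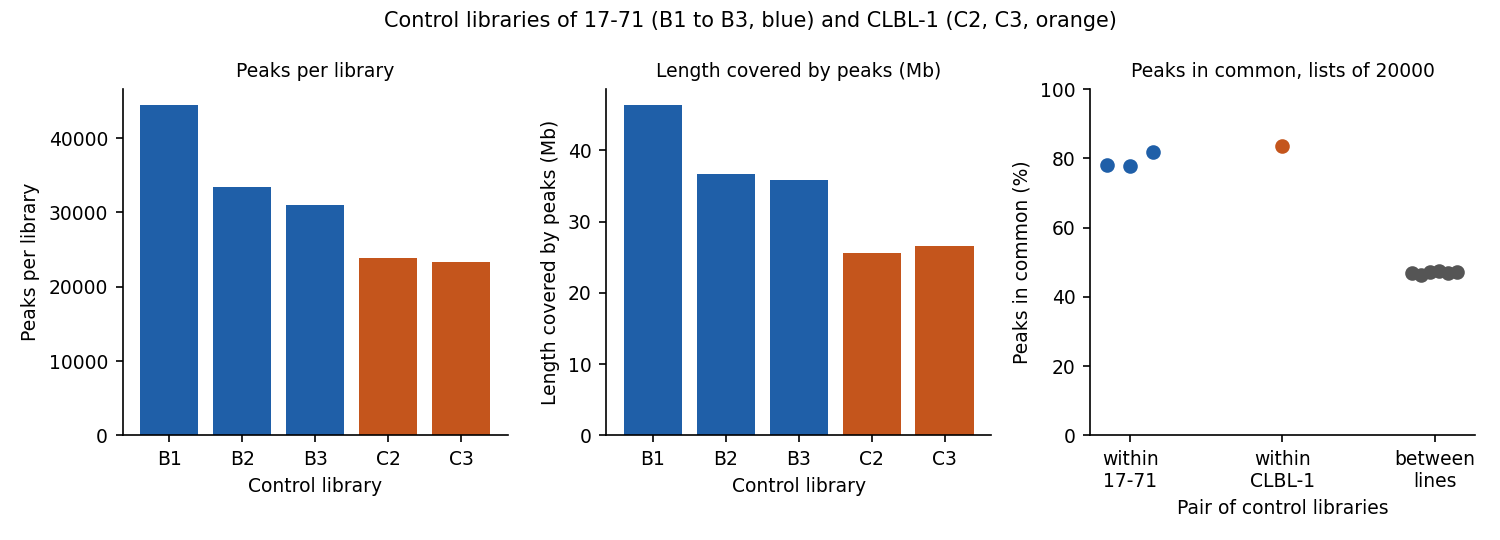
The left and middle panels show, for each control library on the horizontal axis, the number of peaks and the length of genome they cover in Mb (bars, blue for 17-71 and orange for CLBL-1). The right panel shows the percent of peaks in common for each pair of control libraries, with lists of 20000 peaks: pairs within a line lie between 77.9% and 83.7%, and pairs between the lines lie between 46.4% and 47.5%.

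To compare the lines at the same list length, each list was reduced to its 20000 peaks of largest fold enrichment. The weakest peak that was kept had a fold enrichment of 4.20 in B1, 3.29 in B2, 3.31 in B3, 3.57 in C2 and 3.26 in C3, and the first peak left out had the same value at this rounding. The reduction kept 45.1% of the peaks of B1 and 85.8% of the peaks of C3, the largest and the smallest cut. At equal length the lists covered 21.5 ± 0.859 Mb in 17-71 and 21.3 ± 1.03 Mb in CLBL-1 (exact permutation p = 0.8).

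Libraries of one line shared more peaks with each other than with the other line. B1 and B2 had 78.1% of peaks in common, B1 and B3 77.9%, and B2 and B3 81.9%. C2 and C3 had 83.7% in common. The 6 pairs of a 17-71 and a CLBL-1 library had between 46.4% and 47.5% in common, and no pair between the lines reached the lowest pair within a line. The mean share within a line exceeded that between the lines by 33.4 percentage points (2-sided exact permutation of the line over the 5 libraries, p = 0.1, the smallest p possible).

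Touching or overlapping peaks of the 5 lists of 20000 were merged into 37299 regions, and a region was called line-specific if it held a peak in every control library of one line and in none of the other. There were 6081 regions specific to 17-71 (16.3% of all merged regions) and 6528 specific to CLBL-1 (17.5%), while 7017 regions (18.8%) held a peak in all 5 libraries and are called shared. The remaining 17673 regions were found in part of the libraries of a line. Presence in the lists defined these classes, so their counts are a description without a test. With the full lists of unequal length, 54614 regions were formed, of which 12715 (23.3%) were specific to 17-71, 4876 (8.93%) to CLBL-1 and 12212 (22.4%) shared. Lists of equal length favor a near balance by construction, and the full lists did not show one. The counts are also not on an equal footing, since 3 libraries must carry a 17-71-specific region and 2 a CLBL-1-specific one. The order turned when a 17-71 library was left out. The counts for 17-71 and CLBL-1 were then 7409 and 7150 without B1, 7023 and 6982 without B2, and 7067 and 6934 without B3.

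Absence from a list of 20000 did not mean the same in both lines. Of the 6081 regions specific to 17-71, 5789 (95.2%) had no peak in the full list of either CLBL-1 library. Of the 6528 regions specific to CLBL-1, 3806 (58.3%) had no peak in the full list of any 17-71 control library. The other 2722 held a 17-71 control peak below the limit of its list of 20000. Such a peak was not always weaker than those of CLBL-1, since the limit was 4.20 in B1 and 3.26 in C3. B1, the longest list, held a peak in 39.7% of the CLBL-1-specific regions, B2 in 23.7% and B3 in 21.5%, whereas C2 held a peak in 3.80% of the 17-71-specific regions and C3 in 3.62%. For the CLBL-1-specific class, the stricter count of 3806 is the number of regions with no call in the 17-71 control libraries, and 3740 of them also had none in B4 and B6.

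Width and strength of the classes are given as a description, since the classes were set by fold enrichment. The median merged width was 1149 bp for 17-71-specific regions, 1058.5 bp for CLBL-1-specific regions and 1379 bp for shared regions. Regions of 3 kb or more made up 0.362% of the 17-71-specific class, 0.980% of the CLBL-1-specific class and 2.05% of the shared class. A merged shared region is built from 5 peaks and a line-specific one from the peaks of 2 or 3 libraries, so that width is not compared on the same terms. Median fold enrichment in B1 was 5.24 over 17-71-specific regions and 5.64 over shared regions, with 4.19 and 4.60 in B2 and 4.16 and 4.54 in B3. In C2 it was 4.51 over CLBL-1-specific regions and 5.45 over shared regions, and in C3 4.13 and 5.03. A region had to be among the 20000 strongest peaks of all 5 libraries to be shared and of 2 or 3 to be specific, so these values follow in part from the rule. The median distance to the nearest region of the same class was 69.0 kb for 17-71, 57.7 kb for CLBL-1 and 52.9 kb for shared regions. Such a neighbor lay within 10 kb for 9.23%, 12.9% and 10.4% of them, respectively. Nearby regions of other classes were not counted, and whether the regions cluster was not tested.

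The PR220 libraries took no part in the choice of these regions, and offer a check of the line-specific pattern in other libraries of the same lines. Regions specific to 17-71 in the control libraries held a peak, in lists of 20000, in 76.1% of cases in B4 and 85.5% in B6, but in 3.03% in C4, 3.01% in C5 and 3.65% in C6. Regions specific to CLBL-1 held a peak in 87.9% of cases in C4, 86.8% in C5 and 88.3% in C6, but in 12.5% in B4 and 6.99% in B6. The shares of the lines did not overlap for either class, with a mean difference of 77.6 percentage points for the 17-71-specific regions and of -77.9 for the CLBL-1-specific regions (17-71 minus CLBL-1, exact permutation p = 0.1 for each, the smallest p possible with 2 against 3 libraries). In these lists of 20000, B4, whose full list held 22076 peaks, found fewer of the 17-71-specific and more of the CLBL-1-specific regions than B6. With the full lists, B4 held a peak in 15.5% of the CLBL-1-specific regions and B6 in 18.8%.

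**Figure D2:**
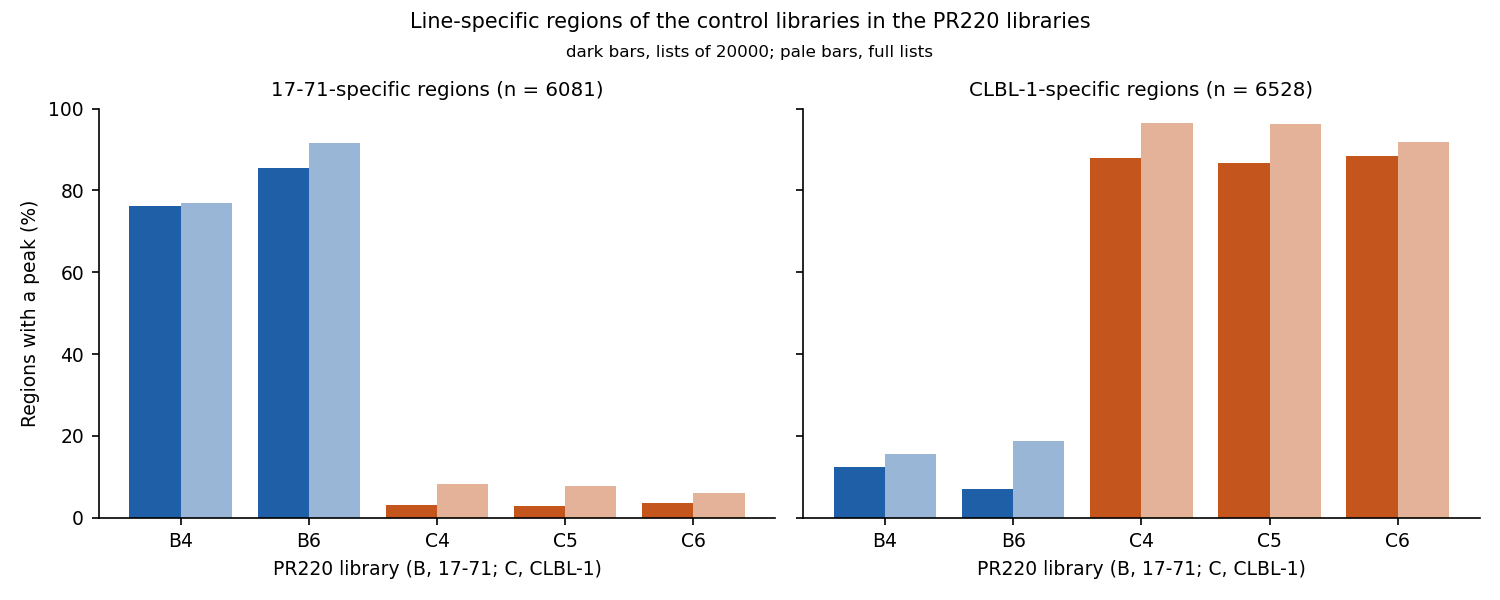
Each bar gives the percent of line-specific regions, chosen in the control libraries, that hold a peak in a PR220 library (dark, lists of 20000; pale, full lists; blue, 17-71; orange, CLBL-1). For 17-71-specific regions the dark bars are 76.1% and 85.5% in 17-71 and at most 3.65% in CLBL-1, and for CLBL-1-specific regions they are 12.5% and 6.99% in 17-71 and at least 86.8% in CLBL-1.

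The whole pattern, a peak in every PR220 library of the same line and in none of the other, was found for 4044 of the 6081 17-71-specific regions (66.5%) and for 4152 of the 6528 CLBL-1-specific regions (63.6%). When regions were merged over the PR220 lists themselves, 6290 of 37962 regions (16.6%) had the 17-71 pattern and 6066 (16%) the CLBL-1 pattern. The opposite pattern was found for 3 of the 17-71-specific and 2 of the CLBL-1-specific regions. Among the CLBL-1-specific regions without any call in the full 17-71 control lists, the share with the whole pattern was 75.5%. Without B4 the shares were 80.0% for the 17-71-specific and 70.4% for the CLBL-1-specific regions, where fewer libraries had to meet the pattern.

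The strongest line-specific regions were found by ranking each region by its weakest peak among the control libraries that carry it. Coordinates are on CanFam3.1. The 17-71-specific region with the strongest weakest peak lies on chromosome X at 106136363 to 106137232, with a fold enrichment of 11.1 in B1, 9.80 in B2 and 10.8 in B3. The 2 CLBL-1 control libraries and the 3 CLBL-1 PR220 libraries had no peak there, and B4 and B6 had peaks of 8.38 and 9.69. The next was on chromosome 19 at 30113664 to 30114197, with 12.0, 9.75 and 8.01 in B1, B2 and B3. It was followed by a region on chromosome 31 at 2932156 to 2932832 and by 2 more regions on chromosome X, at 41651895 to 41652886 and at 33506990 to 33507672. All of these 5 regions lacked a peak in each of the 5 CLBL-1 libraries and had one in each of the 5 17-71 libraries.

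The strongest CLBL-1-specific region lies on chromosome 5 at 85380176 to 85380823, with a fold enrichment of 11.9 in C2 and 11.1 in C3, and of 12.3, 12.3 and 12.0 in C4, C5 and C6. No 17-71 library had a peak there. The next were on chromosome 8 at 13459035 to 13459451, with 12.1 in C2 and 11.0 in C3, and on chromosome 38 at 4019286 to 4019737, with 12.1 and 10.8, and neither had a peak in a 17-71 library. A region on chromosome 34 at 18788961 to 18789538 had 10.9 in C2 and 10.1 in C3, and weak peaks of 2.87, 2.95 and 2.66 in the full lists of B1, B2 and B3. B4 and B6 had peaks of 4.55 and 3.45 there, both within their lists of 20000. A region on chromosome 11 at 73848520 to 73848965 had 9.52 in C2 and 9.33 in C3, with no peak in 17-71 or in C6. The rows of the study's region table held here pair none of these 10 regions with a gene.

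**Figure D3:**
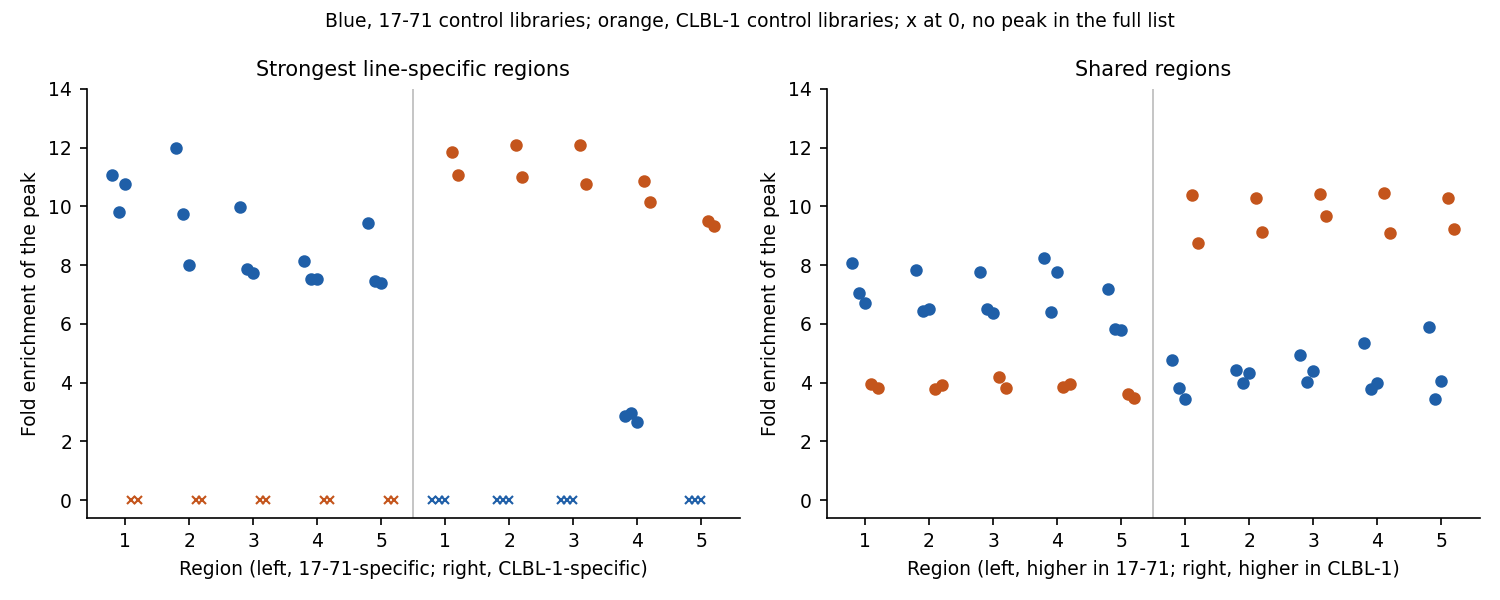
Fold enrichment of the peak in each control library (vertical axis; blue, 17-71; orange, CLBL-1; a cross at 0 marks no peak in the full list) is shown for the 5 strongest regions specific to each line (left) and for 5 shared regions per direction with the smallest p or, for CLBL-1, past both thresholds (right). In the right panel the blue and orange points of each region do not overlap.

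Shared regions, with a peak in the reduced lists of all 5 control libraries, differed in strength between the lines by modest amounts. The class rule kept some larger differences out. Regions with a peak in every full control list but outside the reduced lists of a line were not tested here. An example is the region on chromosome 34 given above, with 10.9 and 10.1 in C2 and C3 against 2.87, 2.95 and 2.66 in 17-71. Fold enrichments of the 7017 shared regions were quantile normalized on the log2 scale and compared with limma. At a false discovery rate (FDR) of 10% and a fold change of at least 2, 0 regions (0%) were higher in 17-71 and 5 (0.0713%) were higher in CLBL-1. These counts do not show a one-sided difference: without B1 they were 7 and 6, and with the full lists 28 and 28. At an unadjusted p under 0.05, 1137 regions were higher in 17-71 and 1112 in CLBL-1. At an FDR of 5% with no limit on the fold change, 519 regions (7.4%) were higher in 17-71 and 438 (6.24%) in CLBL-1, with a median absolute log2 difference of 0.49. From the 5th to the 95th percentile, log2 differences of all shared regions ran from -0.42 to 0.46, against a median standard error of 0.11. The counts at 5% moved with every library: they were 856 and 735 without B1, 318 and 228 without B2, 274 and 188 without B3, 14 and 10 without C2, and 10 and 8 without C3. Without normalization they were 112 and 254, so the balance of directions depends on the scaling.

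The 5 shared regions past both thresholds had fold enrichments between 8.77 and 10.5 in the CLBL-1 control libraries and between 3.43 and 5.91 in those of 17-71. On chromosome 6, at 36653856 to 36655231, fold enrichment was 10.4 in C2 and 8.77 in C3 against 4.79, 3.82 and 3.43 in B1, B2 and B3, a log2 difference of -1.17 ± 0.11 (SE) with a limma FDR of 0.0021. On chromosome 20, at 42790075 to 42792355, it was 10.3 and 9.14 in C2 and C3 against 4.44, 3.99 and 4.32 in 17-71. The others lie on chromosomes 12, 16 and 3, with log2 differences between -1.07 and -1.06. The region higher in 17-71 with the smallest p lies on chromosome 20 at 49883976 to 49885633, with 8.06, 7.04 and 6.72 in B1, B2 and B3 against 3.94 and 3.81 in C2 and C3, and a log2 difference of 0.96 ± 0.10 (SE).

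The differences at shared regions were also present in the PR220 libraries, which limma was not given. Of the 519 regions higher in 17-71, 445 held a peak in all 5 PR220 libraries, and 423 of these (95.1%) were higher in 17-71 there too after centring each library on its median. For 325 of the 445 (73.0%) every 17-71 value exceeded every CLBL-1 value, which was so for 25.6% of all shared regions with a peak in every PR220 library. Of the 438 regions higher in CLBL-1, 379 held a peak in all 5 PR220 libraries and 335 (88.4%) were higher in CLBL-1. For 233 of them (61.5%) every CLBL-1 value exceeded every 17-71 value, against 24.2% of all. Over all 6083 shared regions with a peak in every PR220 library, 52.0% were higher in 17-71. The median log2 difference of the regions higher in 17-71 was 0.50 in the control and 0.39 in the PR220 libraries, and that of the regions higher in CLBL-1 was -0.47 and -0.28.

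Genes could be named only where the study's own region table pairs a region with a gene within 5 kb. The rows held here give 696 such pairs with 665 genes. They were ordered by the effect of PR220, so they are an uneven sample of the genome, and most (515) come from the 17-71 sheet. The PR220 libraries thus had a part in which genes could be named. Their values at the genes below are a description, and no separate check of a difference between the lines. In lists of 20000, 449 merged regions met such a pair, of which 49 were specific to 17-71 (10.9%), 92 to CLBL-1 (20.5%) and 116 shared (25.8%), against 16.3%, 17.5% and 18.8% of all merged regions. With the full lists the order of the lines was the other way, with 129 of 602 such regions specific to 17-71 (21.4%) and 34 to CLBL-1 (5.65%), against 23.3% and 8.93% of all.

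The classes were also counted at regions over the start of a gene. Of the 95 regions that met a pair marked as overlapping a gene start, 31 were specific to CLBL-1 (32.6%), 26 were shared (27.4%) and 3 were specific to 17-71 (3.16%), against 17.5%, 18.8% and 16.3% of all merged regions. Of the 31, 5 lacked a peak in every full 17-71 control list, and of these KEL had a peak of 3.26 in B6 and SFT2D1 one of 3.86 in B4. With the full lists, 70 of 111 such regions were shared (63.1%), 13 were specific to 17-71 (11.7%) and 6 to CLBL-1 (5.41%), against 22.4%, 23.3% and 8.93% of all merged regions, and with lists of 20000 ranked by −log10 p the counts were 11 for 17-71 and 17 for CLBL-1. The counts at gene starts thus depend on the list.

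Among the protein-coding genes with a 17-71-specific region, 25 have a symbol. The 10 with the strongest weakest peak were ALYREF, BNC2, CA14, EIF3K, FADS2, THNSL1, INPP5B, PTPRH, GLUL and RAC1, and none of them had a peak there in the full list of C2 or C3. At ALYREF, which encodes an adaptor for mRNA export, the region on chromosome 9 at 400085 to 401362 had a fold enrichment of 6.96 in B1, 6.02 in B2 and 6.05 in B3. A region inside BNC2, a zinc finger gene, had 7.87, 5.83 and 7.0. A region upstream of CA14, which encodes a membrane-bound carbonic anhydrase, had 6.32, 5.23 and 6.37. All 3 genes were without a peak in the control CLBL-1 libraries, and weak peaks of 2.44 and 2.26 were called at ALYREF in C4 and C5. At GLUL, C5 had a peak of 3.37, within its list of 20000. EIF3K encodes a subunit of a translation initiation factor, FADS2 a fatty acid desaturase, GLUL glutamine synthetase, INPP5B an inositol phosphatase, PTPRH a receptor tyrosine phosphatase and RAC1 a small GTPase of the cytoskeleton. Weakest folds of the 10 genes ran from 4.61 at RAC1 to 6.02 at ALYREF. CEBPB, a transcription factor best known from myeloid cells and inflammation, was picked out after its values were seen. The region inside CEBPB had 5.16, 3.74 and 3.48 in B1, B2 and B3 and no peak in any CLBL-1 library. B6 had 3.26 there and B4 no peak.

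Among the protein-coding genes with a CLBL-1-specific region, 54 have a symbol. The 10 ranked highest by the same rule were CYB5A, BICDL1, CDK5RAP3, C7H1orf43, FRRS1, AANAT, MKNK2, MTMR12, HNRNPU and NFIC. Of these, BICDL1, CDK5RAP3, FRRS1 and NFIC had no peak in the full 17-71 control lists, and the other 6 had a weaker one in at least 2 of the 3 libraries. At the start of CYB5A, which encodes cytochrome b5, the region on chromosome 1 at 5070246 to 5071319 had a fold enrichment of 7.94 in C2 and 7.26 in C3 against 2.93, 2.56 and 2.59 in B1, B2 and B3. A region upstream of BICDL1, which encodes an adaptor of vesicle transport, had 7.89 in C2 and 6.29 in C3. The PR220 library B6 of 17-71 had a peak of 3.57 there, within its list of 20000. A region inside CDK5RAP3 had 6.27 and 6.06. Upstream of NFIC, a transcription factor of the nuclear factor I family, the values were 5.05 and 4.80, and no 17-71 library had a peak at CDK5RAP3 or NFIC. MKNK2 encodes a kinase of the translation factor eIF4E and HNRNPU a nuclear RNA-binding protein. At MKNK2 the values were 5.28 and 5.00 in CLBL-1 and 3.21 and 3.08 in B1 and B2, with no peak in B3.

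A few other genes at CLBL-1-specific regions were picked out after their values were seen, and stand for no group of genes. At the start of DAPP1, an adaptor of B-cell receptor signaling, fold enrichment was 4.86 in C2 and 4.80 in C3 against 2.85, 3.02 and 2.91 in B1, B2 and B3, with 4.15 in B4 and 4.36 to 4.92 in C4 to C6. CD69, an early activation receptor, had 3.62 and 4.00 against 3.36, 2.87 and 2.83, but the PR220 library B4 of 17-71 had 4.46, above all 5 CLBL-1 libraries. TAGAP, a GTPase activator of activated lymphocytes, had 4.19 and 3.51 against 3.61, 3.20 and 3.1, so that B1 exceeded C3, and B4 had 4.12. PIK3CG, a catalytic subunit of phosphoinositide 3-kinase, had 3.82 and 3.35 against 3.42, 3.01 and 2.90, with the same overlap, and B6 had 3.45 and B4 no peak. The limit of 20000 peaks lies at a fold of 4.20 in B1 and of 3.26 in C3. Regions with no peak in any 17-71 control library were found at SELE, the endothelial adhesion molecule E-selectin (5.36 and 4.47 in C2 and C3), upstream of SIGIRR, a negative regulator of interleukin-1 and Toll-like receptors (4.56 and 4.03, with a peak of 2.90 in B6), and at the start of TIMP4, a metalloproteinase inhibitor (4.30 and 3.47).

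In the full lists, 6 receptor genes at 17-71-specific regions were likewise picked out after their values were seen, and stand for no group. Inside TLR7, the receptor for single-stranded RNA, fold enrichment was 3.19 in B1, 4.60 in B2 and 4.78 in B3. Inside CD180, a Toll-like receptor homolog of B cells, it was 2.65, 2.50 and 2.34. At the start of IL10RA, a subunit of the interleukin-10 receptor, it was 3.09, 3.0 and 3.02. The start of CD163, a scavenger receptor known from macrophages, had 3.76, 3.41 and 3.55, and the start of FCER1A, a subunit of the IgE receptor, had 3.56, 3.46 and 3.36. Inside KIT, the receptor for stem cell factor, the values were 2.98, 2.77 and 2.63. No CLBL-1 library, control or PR220, had a peak at these 6 genes, while B6 had one at all of them and B4 at all but IL10RA. These peaks are weak, all of those at CD180, KIT and IL10RA lie below the limits of the lists of 20000, and 23.3% of all regions in the full lists were specific to 17-71.

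Gene lists of B-cell biology were covered thinly: 18 of their 148 genes have a pair in the rows held. None of the 9 B-cell marker genes is among them, and of the 52 markers of all cell types only VWF is, an endothelial gene with weak peaks upstream in B1, B2, B4 and B6 (2.2 to 2.54) and none in B3 or CLBL-1, so the labelled B-cell identity of the lines could not be checked against its defining markers. In the full lists, 10 of the 18 genes had a shared region, 6 a 17-71-specific region, 2 another pattern and 0 a CLBL-1-specific one. Of all regions that met a gene pair, 44.4% were shared, 21.4% specific to 17-71 and 5.65% to CLBL-1. Of all merged regions these shares were 22.4%, 23.3% and 8.93%. In lists of 20000, 3 of the 18 were shared, 3 were specific to CLBL-1, 7 had another pattern and 5 had no region. Of all regions that met a gene pair there, 25.8% were shared and 20.5% specific to CLBL-1. Of all merged regions these shares were 18.8% and 17.5%.

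Among regulators of apoptosis, the region downstream of BCL2A1, a survival factor, was shared, with fold enrichments of 5.34, 4.51 and 4.31 in B1, B2 and B3 and of 4.68 and 4.16 in C2 and C3 (log2 difference 0.15 ± 0.10, limma FDR 0.32). PMAIP1, a BH3-only promoter of apoptosis, had 4.91, 4.14 and 3.96 against 5.57 and 5.14 at its start (log2 difference -0.23 ± 0.10, limma FDR 0.15). Upstream of BCL2L11, another BH3-only gene, the values were 2.94, 2.64 and 2.58 against 3.87 and 4.07, which made it CLBL-1-specific in lists of 20000. MCL1, a survival factor, had weak peaks of 1.86, 1.86 and 1.85 in B1, B2 and B3 and none in the CLBL-1 control libraries. In the PR220 libraries it had peaks of 1.95 in B6 and 3.20 in C6, the highest of all, and none in B4, C4 or C5. FAS, a death receptor, had 3.06, 3.43 and 3.52 inside the gene in B1, B2 and B3 against 3.66 and 4.19 in C2 and C3.

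Of the 12 antigen presentation genes on the list, 3 are held, all of MHC class II. All 3 regions were shared in the full lists, while in lists of 20000 those of DLA-DQA1 and DLA-DMB were CLBL-1-specific and that of DLA-DRA was neither specific nor shared. At the start of DLA-DQA1, fold enrichment was 3.1, 2.85 and 2.74 in B1, B2 and B3 against 4.37 and 4.09 in C2 and C3, and at the start of DLA-DMB it was 3.79, 3.14 and 3.15 against 4.07 and 3.63, so that B1 exceeded C3. At the start of DLA-DRA it was 3.32, 3.37 and 3.55 against 3.43 and 3.17. In the PR220 libraries the values at DLA-DQA1 were 4.28 and 3.42 in B4 and B6 against 4.19, 3.79 and 4.07 in C4, C5 and C6, and those at DLA-DMB were 3.77 and 3.11 against 3.62, 3.49 and 3.81, with overlap at both. At DLA-DRA they were 4.15 and 3.53 against 2.79, 2.74 and 2.78, without overlap, whereas the control values overlapped. The region at the start of the gene that the table names HLA-DRB1, which is not on the list, had 6.32, 6.14 and 6.35 against 4.43 and 5.02 (log2 difference 0.51 ± 0.13, limma FDR 0.030). These genes are polymorphic and have close paralogs, so that fragments could be placed at the wrong copy, and their values are uncertain.

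Among the other list genes, TCF4, a transcription factor of the B lineage, had peaks of 3.55, 3.21 and 3.55 at its start in B1, B2 and B3. C2 and C3 had none there. In the PR220 libraries the order was the other way, with peaks of 2.89 and 2.67 in C4 and C5 and none in B4, B6 or C6. CCND1, which encodes cyclin D1, had 4.06, 3.57 and 3.85 downstream in B1, B2 and B3, and no CLBL-1 library had a peak there. CCR7, a chemokine receptor that guides lymphocytes to lymph nodes, was shared, with 4.65, 4.93 and 4.82 against 4.50 and 3.89 (log2 difference 0.25 ± 0.14, limma FDR 0.25). At the end of MYC, the regulator of growth, the 17-71 control libraries had peaks of 3.40, 3.06 and 3.38 and the CLBL-1 libraries had none. Of the PR220 libraries of 17-71, B6 had a peak of 2.87 at MYC and B4 had none. STAP1, an adaptor of B-cell signaling, had 4.97, 5.55 and 4.69 at its start against 2.80 and 3.39 in C2 and C3, and 3.36 and 3.78 in B4 and B6 against 2.72, 2.65 and 3.84 in C4, C5 and C6. These PR220 values overlapped between the lines. MYBL1, a transcription factor of germinal centre B cells, had 3.43 and 4.39 in C2 and C3 and 3.81 in B3, with no peak in B1 or B2. CCND2, which encodes cyclin D2, had 2.16, 2.08 and 2.12 in B1, B2 and B3 and no peak in C2 or C3, although C6 had 2.63. MAP3K14, a kinase of noncanonical NF-kB signaling, had 2.15, 2.30 and 2.15 and no peak in any other library. The start of IL7R, a subunit of the interleukin-7 receptor, had 2.60, 2.55 and 2.46 against 2.99 and 2.98. Downstream of IL21R, the receptor for interleukin-21, B1 had 3.33 and C2 3.26, and the other control libraries had no peak.

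Of the 116 shared regions with a paired gene, 12 were higher in 17-71 and 3 higher in CLBL-1 by limma at an FDR of 5%, where 7.4% and 6.24% of all shared regions were. These calls share the dependence on single libraries given above. The genes named here were picked out after their values were seen. Besides HLA-DRB1, they include CORO1A, an actin regulator of leukocytes, with a log2 difference of 0.69 ± 0.12 (limma FDR 0.0099) upstream of the gene. CLEC2D, a lectin-like ligand of a natural killer cell receptor, had 0.71 ± 0.11 (limma FDR 0.0071) downstream. Higher in CLBL-1 was PRUNE1, a phosphoesterase gene, with -0.40 ± 0.12 (limma FDR 0.048) at its start. In the PR220 libraries the fold enrichments at CORO1A overlapped, with 3.87 and 5.32 in B4 and B6 against 4.07, 4.11 and 4.76 in C4, C5 and C6. Those at HLA-DRB1, CLEC2D and PRUNE1 did not overlap between the lines. As the gene rows were ordered by the effect of PR220, these values are no separate check of the calls.

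The share of peaks per chromosome differed between the lines beyond the spread of libraries for many chromosomes, by small amounts. In lists of 20000, 14 of 39 chromosomes (35.9%) had a higher share in every 17-71 than in every CLBL-1 control library, and 13 (33.3%) had a lower share. The smallest exact permutation p was 0.1, the limit of this design, and 0.18 after Benjamini-Hochberg adjustment over the 39 chromosomes. The largest difference was on chromosome 14, with 2.44%, 2.45% and 2.38% of peaks in B1, B2 and B3 and 1.46% and 1.53% in C2 and C3, a ratio of 1.62. It had 190 regions specific to 17-71 and 84 specific to CLBL-1, and the ratio was 1.58 in the PR220 libraries. Ranked by ratio and not by difference, chromosomes 34 and 37 followed with 1.20 and 1.18. On the other side were chromosome 32, with 1.13% in 17-71 and 1.46% in CLBL-1 and a ratio of 0.773, and chromosome 29, with a ratio of 0.780. In the PR220 libraries, 21 of the 27 chromosomes without overlap (77.8%) also did not overlap in the same direction, and 29 of all 39 (74.4%) did not overlap there. Chromosome 13 turned direction, with a ratio of 0.958 in the control and 1.22 in the PR220 libraries and no overlap in either. Copy number was not measured, and its part in these shares was not tested.

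**Figure D4:**
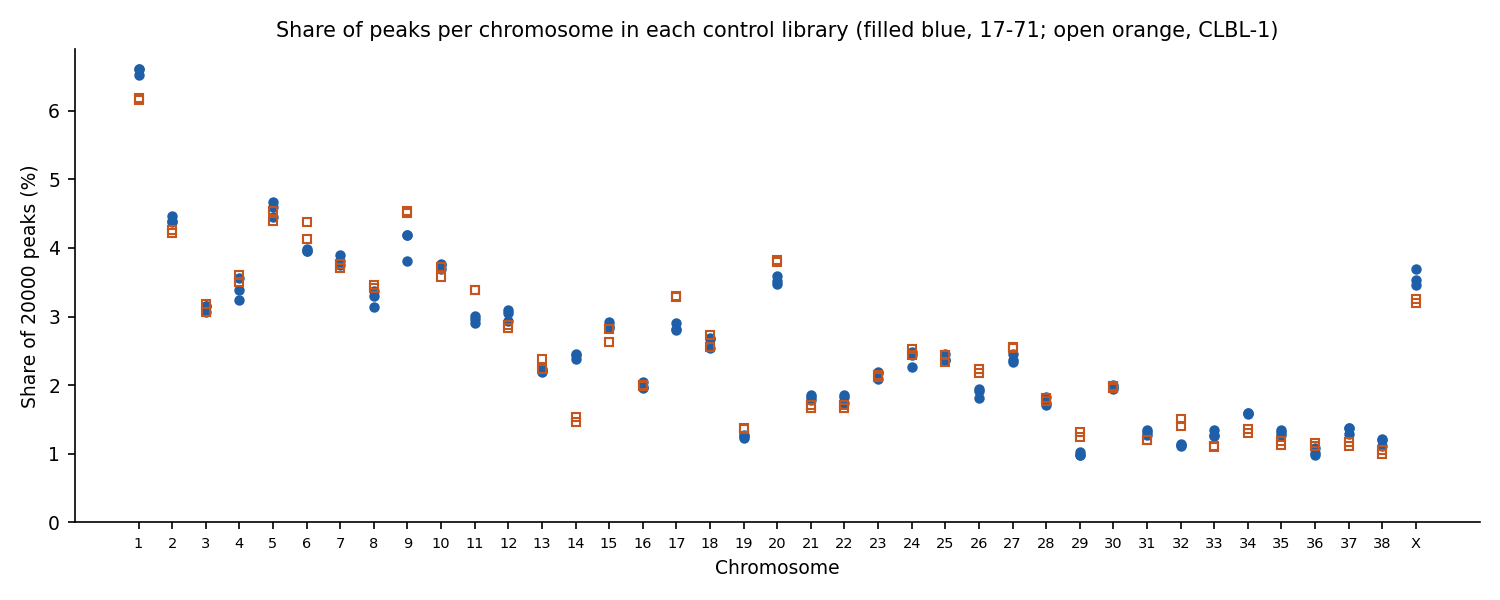
Share of the 20000 strongest peaks on each chromosome, in percent, for the 17-71 (filled blue circles) and CLBL-1 (open orange squares) control libraries. Chromosome 14 has shares of 2.38% to 2.45% in 17-71 and of 1.46% to 1.53% in CLBL-1, and most other chromosomes lie close together.

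Within chromosomes, some windows leaned to one line. In windows of 5 Mb with at least 20 line-specific regions, of which there were 325, the median share of 17-71-specific regions among them was 47.6%. In 7 windows it exceeded 75%, and in 7 it was under 25%. The window at 60 to 65 Mb of chromosome 15 held 19 regions specific to 17-71 and 1 specific to CLBL-1. The window at 10 to 15 Mb of chromosome 32 held 3 and 21, and that at 20 to 25 Mb of chromosome 27 held 8 and 34.

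Runs of consecutive line-specific regions were counted next. In the full lists, where 23.3% of all regions were specific to 17-71 and 8.93% to CLBL-1, 126 runs of at least 5 consecutive regions were specific to 17-71 and 22 to CLBL-1. In lists of 20000 the order was the other way, with 22 runs for 17-71 and 31 for CLBL-1, so the counts show no line with more runs. The runs described here are those of the full lists. The longest 17-71 run spans 2174 kb of chromosome 8, from 65579401 to 67753315, with 5 regions. The third longest, 710 kb of chromosome 11 with 5 regions, contains BNC2. In the PR220 libraries of CLBL-1, C4 and C5 had 1 peak each in the run on chromosome 8 and 3 and 1 in that on chromosome 11, and C6 had 0 in both. The longest CLBL-1 run spans 510 kb of chromosome 20, from 29743964 to 30253539, with 10 regions. In the PR220 libraries of CLBL-1, 10, 11 and 9 peaks fell in that run, against 0 in B4 and 1 in B6.

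Stretches in which the control libraries of one line had peaks and those of the other had none were then sought directly. This search was added after the runs were seen. The stretch with the most such regions spans 1.94 Mb of chromosome 5, from 77817247 to 79755940, and starts 60 kb after a region paired with PKD1L3. The 17-71 control libraries B1, B2 and B3 had 38, 29 and 29 peaks in it, and the PR220 libraries B4 and B6 had 18 and 22. The CLBL-1 libraries C2, C3 and C6 had 0, C4 had 1 and C5 had 3. Of its 40 merged regions, 26 were called in all 3 17-71 control libraries. A stretch of 2.76 Mb lies further along the same chromosome, from 86092139 to 88855851, with 20 regions called in all 3 libraries. Another, on chromosome 2 from 2308767 to 3563228, includes a region at the start of NRP1, a co-receptor for semaphorins and VEGF, with fold enrichments of 3.1, 3.86 and 4.22 in B1, B2 and B3. On the CLBL-1 side, the stretch with the most regions was that of chromosome 20, 534 kb long, with 10 regions called in C2 and C3 and no peak in a 17-71 control library. Stretches on chromosomes 25 and 16, also without a peak in a 17-71 control library, held 8 and 7 regions called in C2 and C3. In the PR220 libraries of 17-71, B4 and B6 had 1 peak each in the stretch on chromosome 25 and 0 in that on chromosome 16.

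**Figure D5:**
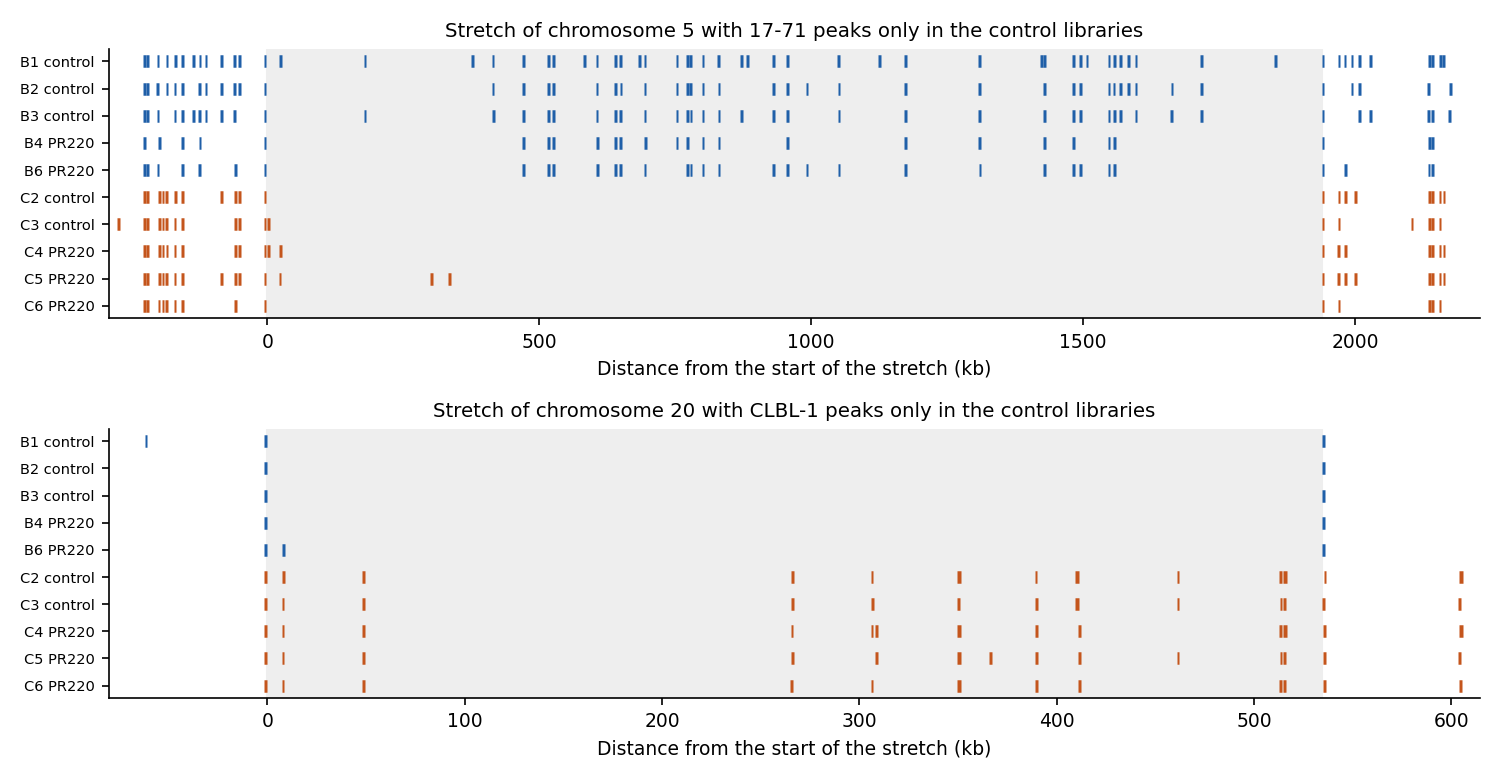
Peaks of the full lists (vertical marks, 1 row per library; blue, 17-71; orange, CLBL-1) are drawn by distance in kb from the start of the shaded stretch on chromosome 5 (top) and chromosome 20 (bottom), and the marks are widened to be visible. Inside the shaded parts the control libraries of one line hold 29 to 38 peaks (top, 17-71) or 10 peaks each (bottom, CLBL-1) and those of the other hold 0, while both lines hold peaks at the borders.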

How the data were processed

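ATAC-seq peak lists of 10 libraries of the canine lines 17-71 and CLBL-1 were analysed, grouped by the labelled line and agent. According to the submitters' processing notes, the authors used CASAVA, Bowtie2 2.2.4, MACS2 and deepTools with CanFam3.1. The authors called broad peaks in each library separately from paired fragments at a −log10 p of at least 5, and replicates were not pooled. The version of MACS2 was not given in the sources used here. The deposited fold enrichment (a ratio to local background) ranked peaks, and the deposited −log10 p served alternatives. The deposited −log10 q was not used. Depth is unknown from these lists, so a missing call is not proof of closed chromatin, and presence has no interval.

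Lists were cut to 20000 peaks, and touching or overlapping peaks (1 bp) were merged. A region's fold is the largest of its peaks. Shared regions were compared with limma 3.58.1 (R 4.3.3; log2 fold enrichment, quantile normalization, trend, Benjamini-Hochberg). In simulated data quantile normalization shrank large differences, and the merging recovered all planted classes. Single values were compared by 2-sided exact permutation in Python 3.11.15 (numpy 2.4.6, pandas 2.3.3). No 2 libraries had identical peaks. Coordinates are 1-based.

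Regions and genes were named by rule: per line, the 5 specific regions and the 10 protein-coding genes with the strongest weakest peak, the 5 shared regions of largest difference past both thresholds or else of smallest p, the 5 longest runs, and the members of gene lists. Genes outside these rules (CEBPB, DAPP1, CD69, TAGAP, PIK3CG, SELE, SIGIRR, TIMP4, TLR7, CD180, IL10RA, CD163, FCER1A, KIT, NRP1, PKD1L3, KEL, SFT2D1, HLA-DRB1, CORO1A, CLEC2D and PRUNE1) were named after their values were seen. The members, lists and rules were chosen with earlier results of these data known. Genes come from the region and gene columns of the study's table, whose tests and counts were not used. Sequences, motifs and the share of peaks near gene starts were not analysed here, for want of a CanFam3.1 genome and annotation.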

Additional observations from a re-analysis of the deposited data

Results flagged for a closer look

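The difference between the lines in length covered by peaks was not the same in control and PR220 libraries. The test of this contrast was chosen after seeing the data, so that its p is a description. The 17-71 lists covered 13.5 Mb more than the CLBL-1 lists in control libraries (39.6 against 26.1 Mb) and 5.10 Mb less in PR220 libraries (23.5 against 28.6 Mb, p = 0.3 by exact permutation over libraries). These line differences are 18.6 Mb apart (exact permutation of the agent within each line, 100 arrangements, p = 0.03). The null of this test is no effect of the agent in either line, which is narrower than an equal difference between the lines. In lists of 20000 they were 0.171 Mb in control and -3.74 Mb in PR220 libraries, 3.91 Mb apart (exact permutation p = 0.06), so that the call is lost at equal list length. Left out one at a time, the libraries moved this value between 13.9 Mb (without B4) and 23.3 Mb (without B6). For peak numbers the corresponding difference was 13580 peaks (exact permutation p = 0.05). Read depth was not available from the lists, and its part in this contrast was not tested.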

How the results depend on the processing

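With the full lists, 12715 regions were specific to 17-71 (6081 with lists of 20000); with 10000 peaks per list the counts were 2762 for 17-71 and 3247 for CLBL-1, where fewer peaks enter. Regions specific to CLBL-1 numbered 2769 in full lists with a −log10 p of at least 10 and 3806 where absence was judged against the full list. Lists cut to the shortest, ranked by −log10 p, or merged within 200 bp stayed within 1.5 times of the main counts for both lines. Leaving out each control library gave 6536 to 7409 for 17-71 and 6934 to 8741 for CLBL-1. The rule is easier to meet with fewer libraries, so this rise is built in.

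Shared regions past both limma thresholds and higher in 17-71 numbered 0, but 2 with median centring only, 1 in a fit of all 10 libraries, 28 with full lists, 519 at an FDR of 5% without a fold limit, and 1 to 7 without a control library (with 1 CLBL-1 library left, it is assumed to vary like the 17-71 libraries). Those higher in CLBL-1 numbered 5, with 28 in full lists, 438 at an FDR of 5% without a fold limit and 4 to 6 without a library.

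The share with the same pattern in the PR220 libraries ranged from 67.3% to 80.0% (17-71-specific) and from 65.8% to 70.4% (CLBL-1-specific) when each PR220 library was left out. With fewer libraries to meet, this share cannot fall. For CLBL-1-specific regions it was 67.9% with full PR220 lists and 57.6% with lists of 10000. Leaving out libraries gave differences of 8580.5 to 15298 peaks, 10.1 to 15.4 Mb and 32.3 to 35.6 percentage points of sharing. It gave 29 to 32 chromosomes without overlap, a count that also cannot fall with fewer libraries.

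Numbers 2 and 3 occur in the titles of both lines, but the labels do not say that they mark pairs. Deviations of same-numbered libraries had an r of -0.0856 and 0.0758 over the 7017 shared regions. With 2 CLBL-1 libraries their deviations from the mean are exact opposites, so r with C2 and with C3 differs only in sign. These values therefore cannot decide whether the numbers mark pairs. A replicate block also drops B1, which has no partner, from the differences of peaks and length, and these equal the values without B1; in limma, too, the block term of B1 takes up its values. With the block, the line difference was 8580.5 peaks and 10.1 Mb (exact sign-flip p = 0.5, the smallest possible with 2 pairs), and limma called 5 regions higher in 17-71 and 6 in CLBL-1, or 988 and 863 at an FDR of 5% without a fold limit.

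The share of peaks near gene starts and its alternatives were not run for want of an annotation. Groups of 2 or 3 libraries and unknown depth limit every result. The alternatives for regions over gene starts and for runs were chosen after seeing the data, as was that for the contrast of covered length between agents (3.91 Mb in lists of 20000).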
